A study of Mus musculus with 235 samples.

Results

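The genes described here are 34 subunits of the receptors for glutamate and GABA: 22 for glutamate and 12 for GABA, out of 27998 genes in the count table. They were taken by symbol, and all 34 were found. They comprise the 4 AMPA subunits Gria1 to Gria4, 1 delta subunit (Grid1), 5 kainate subunits (Grik1 to Grik5), 6 NMDA subunits (Grin1, Grin2a, Grin2b, Grin2c, Grin2d and Grin3a), 6 metabotropic glutamate receptors (Grm2, Grm3, Grm4, Grm5, Grm7 and Grm8), 10 GABA-A subunits (Gabra2, Gabra3, Gabra4, Gabra5, Gabra6, Gabrb1, Gabrb2, Gabrd, Gabrg1 and Gabrg3) and both GABA-B subunits (Gabbr1 and Gabbr2). The study gave 15 male C57Bl/6 mice dexamethasone and 15 the saline vehicle by intraperitoneal injection. All 30 animals were 3 months old, the dose was 10 mg/kg, and tissue was taken 4 h later. Punches of 8 brain regions were sequenced as 3' end libraries: amygdala (AMY), cerebellum (CER), prefrontal cortex (PFC), the paraventricular nucleus of the hypothalamus (PVN), and the dorsal and ventral CA1 field and dentate gyrus of the hippocampus (dCA1, dDG, vCA1, vDG). Each group of 1 region and 1 treatment held 13 to 15 animals, 118 vehicle and 117 dexamethasone libraries in all, and each library is 1 punch of 1 animal.

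Glutamate opens AMPA, kainate and NMDA channels and so carries most fast excitation in the brain, while GABA opens chloride-conducting GABA-A channels and so carries most fast inhibition. The metabotropic glutamate receptors and GABA-B receptors act more slowly through G proteins. Receptors are assembled from several subunits, and which subunits a region expresses sets the speed, ion selectivity and drug response of its receptors. Dexamethasone is a synthetic agonist of the glucocorticoid receptor, a transcription factor, and hippocampus, prefrontal cortex, amygdala and PVN are brain regions classically studied for glucocorticoid action.

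The libraries held between 268538 and 1451422 counts each (median 742957). RNA integrity numbers (RIN) ran from 2.2 to 9.0, and 24 libraries were under 5. Levels are given as counts per 1000000 counts of the library (CPM), scaled by TMM over all 235 libraries, and a value "a (b to c)" is the median with the lowest and highest library. Counts come from the 3' ends of transcripts, so levels are compared between regions and treatments and not between genes. The labelled tissue did not match its defining markers everywhere. In the CER libraries some defining cerebellar genes were at or near 0. Gabra6 had 11 counts over 30 libraries, and the highest vehicle library had 3.85 CPM of the Purkinje cell gene Pcp2. Other listed genes were higher: Zic1 had a CER median of 59.6 CPM (15.8 to 330) and Cbln1 of 9.16 (0 to 54.0). The granule cell list summed to a vehicle median of 204 CPM in CER, against 171 in AMY to 447 in PVN elsewhere. The Purkinje cell list summed to 158 CPM in CER, against 402 in PVN to 753 in PFC elsewhere. The dentate marker Prox1 was as high in dCA1 as in dDG, with vehicle medians of 527 and 419 CPM. AMY libraries held the striatal genes Ppp1r1b and Drd1, with medians of 510 and 106 CPM. Vehicle PVN libraries had the highest sum of the 3 listed thalamic genes, a median of 1402 CPM (433 to 2024). Elsewhere these medians were 232 in dCA1 to 318 in AMY. The 6 listed hypothalamic genes summed to 280 CPM in vehicle PVN libraries, with a range of 51.4 to 2213.

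The regional map in vehicle animals came first. Of the 34 genes, 32 passed the filter on low counts, and all 32 differed among the 8 regions (edgeR quasi-likelihood test with the animal as a block and Benjamini-Hochberg adjustment, threshold 0.05). Of all genes tested, 73.3% passed the same test. In bulk punches a lower level from fewer cells of a type and from less RNA per cell cannot be told apart. The difference between the highest and the lowest region, as fitted on the log2 scale, ran from 0.38 for Gabbr1 to 3.58 for Grm4 with a median of 1.44. It exceeded 1 for 23 genes and 2 for 9 genes. CER was the lowest region for 15 genes and dCA1 for 8, while dCA1 was the highest for 8 and PFC and PVN for 6 each. Grin2d, a glutamate-binding NMDA subunit, was not tested, since it had only 12 counts in 8 of the 235 libraries.

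**Figure D1:**
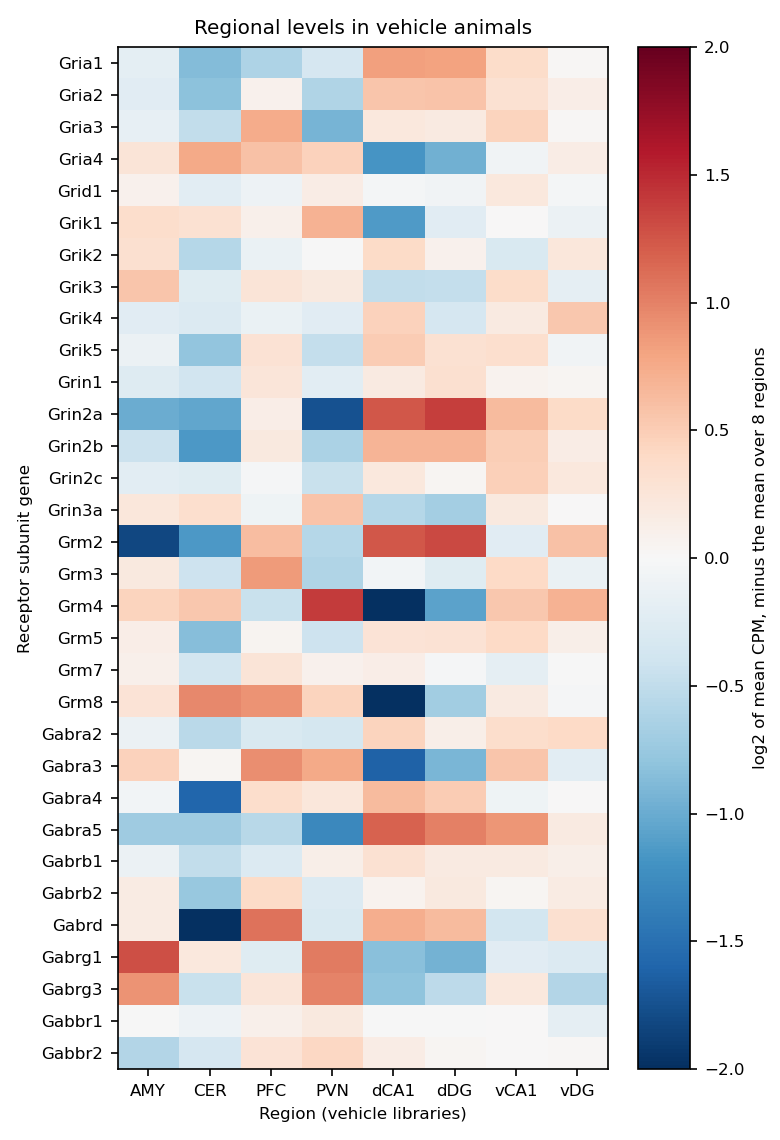
Mean vehicle level of each of the 32 tested genes (rows) in the 8 regions (columns), as the log2 of the mean CPM minus that gene's mean over regions; red is above and blue below the gene's own mean, and the colour scale ends at 2 in either direction. Grin2a, Gabra5 and Grm2 are red in dCA1 and dDG, where Grm4, Gabra3, Gria4 and Gabrg1 are blue, and most rows are blue in CER; the red of Grm4 in vCA1 and vDG includes 3 libraries rich in Gabra6.

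Set against the mean of the other 7 regions, CER had 24 of 32 genes lower and 5 higher, while 47.9% of all genes passed, 23.9% lower and 24% higher. The 5 higher genes were Grin3a, Gria4, Gabrg1, Grm8 and Grm4. The 6 listed oligodendrocyte genes summed to a median of 13724 CPM in vehicle CER libraries (6826 to 15427), the highest median of the 8 regions, against 2027 in PFC and 9146 in AMY. The median of the 5 listed neuronal genes in CER, 3905 CPM, lay within the range of the other regions' medians, 3054 to 4561. The part of the oligodendrocyte genes in the lower receptor levels was not tested. In vCA1, 15 genes were higher and 0 lower, while 19.7% of all genes passed, 12.4% higher and 7.33% lower. Closest to a lower call were Gabrg1 (adjusted p = 0.0529) and Grik2 (0.0544). Without 3 vehicle libraries of the ventral hippocampus that were rich in the cerebellar gene Gabra6, vCA1 had 15 higher and 3 lower, namely Gabrg1 (adjusted p = 0.0302), Grik2 (0.00515) and Gria4 (0.00353). The dCA1 punches had 15 higher and 9 lower (39.1%), dDG 12 and 10 (32.8%), PFC 13 and 5 (39.5%), PVN 11 and 12 (41.1%), AMY 7 and 7 (25.1%) and vDG 5 and 3 (10.6%). RNA quality moved with region: vehicle PFC libraries had a RIN of 7.1 to 8.4 with a median of 7.7, while the medians of the other regions were 6.05 to 6.9. In the libraries with a RIN of at least 5, 19 of 32 genes passed in PFC in place of 18, and 191 of the 384 contrasts in place of 198. Dorsal and ventral hippocampus were also compared directly. Relative to vCA1, dCA1 had 6 genes higher and 10 lower, where 22.1% of all genes passed. The dDG punches had 8 higher and 7 lower than vDG, where 15.3% passed. Vehicle dCA1 punches had a median sum of 1360 CPM for the 8 listed dentate genes, against 233 CPM for vCA1 punches. That sum was 1082 CPM for dDG and 424 CPM for vDG. The 4 listed CA1 pyramidal genes summed to a median of 157 CPM for dCA1, below vCA1 (395) and dDG (207). The part of these markers in the dorsal and ventral comparisons, here and below, was not tested. Between the ventral fields, vCA1 had 9 higher and 2 lower than vDG (12.5%). This count was 4 higher and 2 lower without the 3 libraries rich in Gabra6: Gabra3, Gabra5, Gabrg3 and Grm3 were still higher, while Gria1, Gria3, Grik3, Grik5 and Gabbr1 no longer passed. Between dCA1 and dDG 3 genes differed, against 1.89% of all genes: Grik4 was higher and Gabra3 and Grm8 lower in dCA1.

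Among the AMPA receptor subunits, which form the main fast excitatory channel, Gria1, Gria2 and Gria3 were lower and Gria4 higher in CER and PVN than in the mean of the other regions. Gria4 medians were 33.9 CPM in dCA1 (22.7 to 54.7), 39.5 in dDG (18.5 to 62.6), 52.6 in vCA1 (41.4 to 291) and 71.0 in vDG (40.5 to 233). Outside the hippocampus Gria4 had medians of 116 CPM in PFC (71.9 to 155), 91.3 in AMY (66.1 to 144), 107 in PVN (90.4 to 152) and 136 in CER (91.9 to 192). The CER difference was 0.88 ± 0.11 (adjusted p = 4.28e-11) on the log2 scale and the dCA1 difference was -1.33 ± 0.15 (adjusted p = 1.85e-13). Every CER library lay above every dCA1 library, and no dDG library reached the lowest library of CER, PVN, PFC or AMY. Gria1 had its highest vehicle medians in dCA1 and dDG, 971 and 953 CPM, and its lowest in CER with 290.1 CPM. Gria2, whose edited form makes the channel nearly impermeable to calcium, fell between medians of 562 CPM in CER and 1545 CPM in dDG. Gria3 instead had its highest median in PFC, with 345 CPM, and its lowest in PVN, with 108 CPM. The AMPA genes thus did not share a single regional order. Grid1, a delta subunit that binds cerebellins at synapses, was higher than the mean of the other regions in vCA1 and lower in CER.

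The kainate receptor genes had fitted log2 ranges between 0.852 for Grik4 and 1.74 for Grik1. Grik1 and Grik3, which form channels of low agonist affinity, were both lower in dCA1 than in vCA1, by -0.996 ± 0.32 and -0.89 ± 0.18 on the log2 scale, while Grik2, of the same class, was higher by 0.71 ± 0.18. Without the libraries rich in Gabra6 the difference of Grik1 was -0.81 ± 0.32 (adjusted p = 0.0602) and no longer passed. Grik5, a high-affinity partner subunit, was higher than in the mean of the other regions in PFC, dCA1, dDG and vCA1. It was lower in CER and PVN. Grik4, the other high-affinity subunit, was highest by the fit in vDG and was higher in dCA1 and lower in dDG than in the mean of the other regions.

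NMDA receptors need the glycine-binding subunit Grin1 together with glutamate-binding Grin2 subunits, and Grin2a and Grin2b differed most between regions. Grin2a medians were 353 CPM in dCA1 (220.5 to 463), 397 in dDG (223 to 525), 226 in vCA1 (140.5 to 355) and 165 in vDG (113 to 371). Outside the hippocampus Grin2a had medians of 164 CPM in PFC (117 to 201), 71.1 in AMY (42.6 to 122), 45.1 in PVN (20.3 to 57.2) and 57.4 in CER (31.3 to 169). The differences from the mean of the other regions were 1.58 ± 0.09 (adjusted p = 2.28e-31) in dDG and -1.95 ± 0.13 (adjusted p = 3.02e-26) in PVN on the log2 scale. Every dCA1 and dDG library lay above every library of PFC, AMY, PVN and CER. Grin2b gives the receptor slower kinetics than Grin2a. Grin2b medians were 667 CPM in dCA1 (398 to 837), 705 in dDG (372 to 859), 597 in vCA1 (301 to 799.7) and 423 in vDG (231 to 799). Outside the hippocampus Grin2b had medians of 448 CPM in PFC (378 to 570.3), 334 in AMY (184 to 426), 263 in PVN (171 to 366) and 139 in CER (82.5 to 523). Its difference was 0.80 ± 0.10 (adjusted p = 5.98e-11) in dCA1 and -1.38 ± 0.12 (adjusted p = 6.7e-18) in CER, and the CER libraries spread so widely that their highest overlapped the dCA1 range. Grin2a was higher in the dorsal than in the ventral punch of both fields, by 0.65 ± 0.13 for CA1 and 1.02 ± 0.13 for the dentate gyrus. Grin2b passed this comparison in the dentate gyrus (0.57 ± 0.14) and gave 0.20 ± 0.14 (adjusted p = 0.361) for CA1. Grin3a, a glycine-binding subunit that lowers calcium permeability, ran the other way. Its medians were 83.5 CPM in PVN, 32.7 in dCA1 and 35.9 in dDG, and it was lower in the dorsal than in the ventral punch of both fields. Grin1 and Grin2c varied little, with fitted log2 ranges of 0.717 and 0.875, and of 0.747 and 0.727 without the libraries rich in Gabra6. Grin2c, a subunit known from cerebellar granule cells and astrocytes, was higher in vCA1 and lower in PVN than in the mean of the other regions.

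The widest regional range of the 32 genes was that of a metabotropic receptor, Grm4. Grm2 couples to inhibitory G proteins and sits mostly on presynaptic terminals. Grm2 medians were 60.0 CPM in dCA1 (36.9 to 108), 63.9 in dDG (19.7 to 139), 21.7 in vCA1 (6.38 to 46.6) and 36.0 in vDG (11.0 to 68.3). Outside the hippocampus Grm2 had medians of 37.9 CPM in PFC (26.1 to 67.6), 8.07 in AMY (1.73 to 14.3), 19.4 in PVN (2.89 to 32.5) and 9.78 in CER (3.56 to 31.4). It was higher in dDG by 1.51 ± 0.14 (adjusted p = 2.23e-17) and in dCA1 by 1.41 ± 0.14 (adjusted p = 1.59e-15), and lower in AMY by -2.04 ± 0.22 (adjusted p = 2.38e-13). No AMY library reached the lowest dDG library. Grm4 and Grm8 are presynaptic receptors that also couple to inhibitory G proteins. Grm4 medians were 5.03 CPM in dCA1 (0 to 12.8), 6.98 in dDG (0 to 33.8), 14.7 in vCA1 (7.75 to 275) and 19.9 in vDG (8.30 to 212). Outside the hippocampus Grm4 had medians of 16.5 CPM in PFC (10.5 to 27.1), 32.1 in AMY (17.7 to 48.9), 66.3 in PVN (34.7 to 83.0) and 34.7 in CER (20.5 to 50.5). Grm4 was higher in PVN by 1.73 ± 0.21 (adjusted p = 3.56e-12) and lower in dCA1 by -2.37 ± 0.36 (adjusted p = 2.17e-08), and the PVN and dCA1 ranges did not overlap. Grm8 medians were 2.60 CPM in dCA1 (0 to 10.1), 7.96 in dDG (3.08 to 15.1), 14.0 in vCA1 (1.29 to 30.0) and 12.5 in vDG (0 to 31.0). Outside the hippocampus Grm8 had medians of 27.7 CPM in PFC (12.7 to 35.2), 14.9 in AMY (6.79 to 36.1), 19.3 in PVN (10.7 to 24.9) and 24.0 in CER (7.50 to 86.8). Grm8 was higher in CER by 1.07 ± 0.17 (adjusted p = 2.58e-08) and in PFC by 1.06 ± 0.16 (adjusted p = 1.46e-08), and lower in dCA1 by -2.35 ± 0.27 (adjusted p = 1.13e-12). Every PFC library lay above every dCA1 library, while the CER libraries reached down into the dCA1 range. Grm3, which astrocytes also express, had its highest median in PFC (154 CPM) and its lowest in PVN (52.0 CPM). Grm5, the postsynaptic member coupled to the phospholipase C pathway, was higher in dCA1, dDG and vCA1 and lower in CER and PVN. Grm7 had a fitted log2 range of 0.64 and was higher in PFC and lower in CER.

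GABA-A alpha subunits are known to decide where a receptor sits and which drugs bind it, and Gabra5 and Gabra3 differed in opposite directions between the dorsal hippocampus and the cortex. Gabra5 medians were 216 CPM in dCA1 (133 to 258), 192 in dDG (109.8 to 262), 170.4 in vCA1 (99.3 to 233) and 111 in vDG (49.4 to 156). Outside the hippocampus Gabra5 had medians of 61.8 CPM in PFC (47.1 to 90.6), 55.2 in AMY (38.4 to 78.3), 37.1 in PVN (23.5 to 59.0) and 48.0 in CER (28.4 to 111). Gabra5, known from extrasynaptic receptors of hippocampal pyramidal cells, was higher in dCA1 by 1.36 ± 0.09 (adjusted p = 2.06e-26) and lower in PVN by -1.45 ± 0.12 (adjusted p = 2.38e-19). Every dCA1 library lay above every library of PFC, AMY, PVN and CER. Gabra3 showed the opposite pattern in the dorsal hippocampus. Gabra3 medians were 34.1 CPM in dCA1 (18.2 to 61.0), 42.3 in dDG (21.7 to 163), 161 in vCA1 (78.9 to 220.5) and 96.6 in vDG (48.3 to 170.3). Outside the hippocampus Gabra3 had medians of 208 CPM in PFC (159 to 277), 164 in AMY (96.4 to 194), 173 in PVN (137 to 332) and 118 in CER (86.2 to 153). It was lower in dCA1 by -1.89 ± 0.14 (adjusted p = 3.76e-22) and higher in PFC by 1.10 ± 0.10 (adjusted p = 1.75e-17), and the ranges of those regions did not overlap. Within CA1 the dorsal punch was lower than the ventral by -2.21 ± 0.17, and within the dentate gyrus by -0.80 ± 0.16. Gabra4 pairs with the delta subunit in forebrain extrasynaptic receptors. Gabra4 medians were 149 CPM in dCA1 (68.5 to 201), 126 in dDG (90.0 to 215), 83.9 in vCA1 (59.9 to 139) and 96.9 in vDG (24.7 to 177). Outside the hippocampus Gabra4 had medians of 122 CPM in PFC (73.7 to 172), 94.1 in AMY (40.4 to 157), 122 in PVN (34.6 to 215) and 26.0 in CER (6.38 to 68.9). It was lower in CER by -1.82 ± 0.17 (adjusted p = 1.47e-17) and higher in dCA1 by 0.74 ± 0.12 (adjusted p = 3.79e-07), and the highest CER library just reached the lowest dCA1 library. Gabra2, an alpha subunit of axon initial segments and other synapses, was higher in dCA1, vCA1 and vDG and lower in CER, PFC and PVN.

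Gabrd, the delta subunit of tonic, extrasynaptic inhibition, was measured at low counts. Gabrd medians were 17.1 CPM in dCA1 (7.96 to 29.6), 16.0 in dDG (5.63 to 33.8), 7.39 in vCA1 (0 to 25.9) and 10.5 in vDG (2.75 to 38.0). Outside the hippocampus Gabrd had medians of 23.3 CPM in PFC (13.8 to 38.1), 11.2 in AMY (2.39 to 34.6), 6.73 in PVN (0 to 22.1) and 1.93 in CER (0 to 8.46). It was higher in PFC by 1.24 ± 0.17 (adjusted p = 2.44e-09) and lower in CER by -2.51 ± 0.31 (adjusted p = 1.18e-11), and no CER library reached the lowest PFC library. Gabrg1 and Gabrg3 are gamma subunits. Gabrg1 medians were 38.3 CPM in dCA1 (16.8 to 58.2), 30.9 in dDG (14.6 to 56.4), 53.3 in vCA1 (30.8 to 78.1) and 52.5 in vDG (33.2 to 82.9). Outside the hippocampus Gabrg1 had medians of 51.0 CPM in PFC (32.8 to 76.8), 148 in AMY (117 to 237), 136 in PVN (85.7 to 179) and 75.0 in CER (50.8 to 124). Gabrg1 was higher in AMY by 1.46 ± 0.08 (adjusted p = 9.11e-31) and in PVN by 1.22 ± 0.09 (adjusted p = 1.66e-24). All AMY and PVN libraries lay above every hippocampal and PFC library. Gabrg3 medians were 11.1 CPM in dCA1 (8.49 to 27.6), 12.2 in dDG (7.51 to 23.1), 24.3 in vCA1 (15.0 to 34.8) and 13.8 in vDG (2.45 to 24.4). Outside the hippocampus Gabrg3 had medians of 24.1 CPM in PFC (18.7 to 32.4), 37.1 in AMY (19.2 to 60.3), 40.3 in PVN (29.0 to 55.2) and 14.4 in CER (3.67 to 27.9). Gabrg3 was higher in PVN by 1.11 ± 0.11 (adjusted p = 1.03e-16) and in AMY by 1.03 ± 0.11 (adjusted p = 2.09e-14), and lower in dCA1 by -0.999 ± 0.14 (adjusted p = 4.15e-09). The PVN and dCA1 ranges did not overlap. The beta subunits varied less than these, with fitted log2 ranges of 0.788 for Gabrb1 and 1.17 for Gabrb2. For the GABA-B receptor, the agonist-binding subunit Gabbr1 and the G protein-coupling subunit Gabbr2 were both higher in PVN and both lower in CER. The fitted log2 range of Gabbr2 was 1.00, with medians of 260.2 CPM in PVN and 136 CPM in AMY. Gabra4 and Gabrb1 lie head to head on chromosome 5 and their annotated spans overlap at the starts; whether counting used the strand is not given in the sources used here.

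Gabra6, the alpha subunit known from cerebellar granule cells, was not tested in the regional map. In the 15 vehicle CER libraries it was at 0. A limit of 3 counts, set here for a count of 0, corresponds to 2.89 to 11.9 CPM in a CER library. This limit is approximate and covers counting error only. It had 998 counts in the whole series, 864 of them in 4 libraries of the ventral hippocampus. Those libraries were vehicle replicates 4 and 15 and dexamethasone replicate 13 of vDG, and vehicle replicate 15 of vCA1, with 233, 157, 289 and 185 counts. The highest count in any other library was 19, and the other 27 vDG libraries together held 74. In the same 4 libraries the granule cell gene Cbln3 stood at 383, 243, 548 and 433 CPM and the Purkinje cell gene Pcp2 at 85.1, 47.7, 121 and 124 CPM. Grm4 stood at 212, 125, 259 and 275 CPM, Gria4 at 233, 145, 220 and 291 CPM, and Grin2c at 120, 124, 148 and 146 CPM. These 4 libraries carried the highest Grm4 and Gria4 values of their regions. Without them, a choice made after the data were seen, 32 of 32 genes still differed among regions and 200 region contrasts passed in place of 198, with 22 of the 384 calls changed. The changes lay mostly in the contrasts of vCA1 and vDG, and none lay in those of CER, PFC or dDG against the mean of the others. The vDG difference of Grm4 from the mean of the other regions went from 0.73 ± 0.23 (adjusted p = 0.0214) to 0.05 (adjusted p = 0.916), and the vCA1 difference of Gria4 from -0.11 ± 0.13 (adjusted p = 0.601) to -0.38 (adjusted p = 0.00353).

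**Figure D2:**
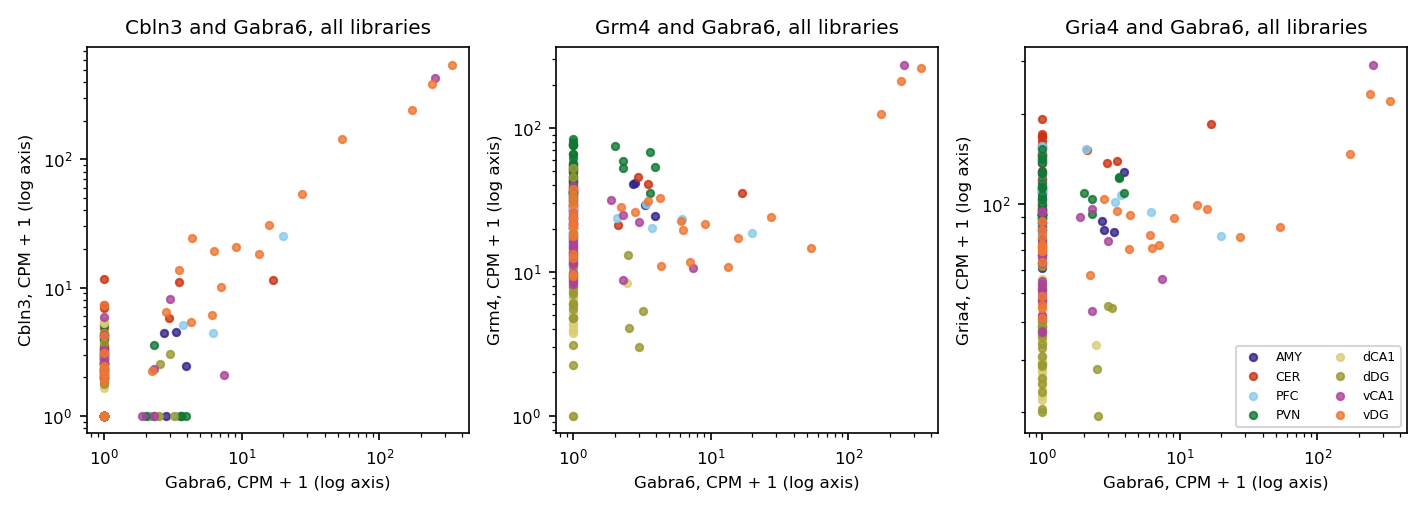
Level of Cbln3, Grm4 and Gria4 (vertical axes) against Gabra6 (horizontal axes) in the 235 libraries, each as CPM plus 1 on log axes and coloured by region. At the far right of each panel lie 1 vCA1 and 3 vDG libraries, the highest of all libraries in Gabra6, Cbln3 and Grm4, while most CER libraries lie at a Gabra6 level of 0.

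The effect of dexamethasone was tested in each region separately. Over the 8 regions 226 tests of these genes passed the filter, covering 32 genes, 24 of them in all 8 regions. Of the 226, 5 passed the threshold (edgeR quasi-likelihood test, Benjamini-Hochberg adjusted over all genes of the region), 1 higher and 4 lower, which is 2.21% of the tests. Over all genes 5.17% of 71817 tests passed, 3.23% higher and 1.94% lower. The difference between these shares was not tested. Of the 226 log2 differences, 177 were smaller than 0.2 in either direction, and the median size was 0.0941 with a median standard error of 0.123. An unadjusted p under 0.05 was reached by 31 tests. The calls were in PFC (3 of 31 genes tested, background 6.14%), dCA1 (1 of 26, background 4.68%) and vCA1 (1 of 29, background 5.45%). In AMY, CER, PVN, dDG and vDG, 0 of 25 to 30 genes passed, where 5.62%, 6.18%, 5.63%, 3.7% and 3.93% of all genes did. The number with an unadjusted p under 0.05 there was 2, 3, 4, 3 and 0, and DESeq2 called 1 gene in these regions, Grm3 in CER. Other alternative analyses, given below, also called Gabra4 in PVN (5 of them) and Grin2c in dDG (2). None of the kainate, delta, metabotropic or GABA-B genes passed in any region in these fits, although 2, 0, 9 and 0 of their tests had an unadjusted p under 0.05. Over 11 alternative analyses, metabotropic genes did pass: Grm3 in CER in 5, Grm2 in PFC and Grm4 in vCA1 in 3 each, and Grm2 in vCA1 and Grm3 in dCA1 in 2 each.

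Vehicle and dexamethasone animals with the same replicate number shared batches: the plate in 115 of 115 pairs of libraries and the punching date in 109. With this replicate number as a block, 12 of the 226 tests passed (5.31%, where 6.38% of all genes did), and with punching date and plate as factors 11 passed (4.87%, where 5.9% of all genes did). Of the 5 calls above, both kept Gria1, Grin2c and Gabrd in PFC and Gabra2 in dCA1, and neither kept Grin3a in vCA1. The block added Gria2, Gria4, Grm2 and Grin2a in PFC, Gabra4 in PVN, Grm3 in CER and dCA1, and Grin2c in dDG. Gabra4 in PVN had a log2 fold change of -0.54 ± 0.17 (edgeR adjusted p = 0.0509, 0.0247 with the block) and passed in 5 of the 11 alternatives. In PVN the 3 listed thalamic genes summed to medians of 1402 CPM in vehicle and 920 in dexamethasone libraries, and 0 of 3 passed. The 6 hypothalamic genes summed to 280 (51.4 to 2213) and 956 (13.2 to 2978), and 0 of 6 passed. Of other lists there, Flt1, Slco1a4, P2ry12 and Prox1 were lower and Ppp1r1b higher. The part of these markers in the Gabra4 value was not tested. Grm3 gave -0.37 ± 0.12 in CER (edgeR adjusted p = 0.0621, 0.0446 with the block) and -0.28 ± 0.13 in dCA1 (0.331, 0.0393 with the block). Grin2c, which fell in PFC, gave -0.45 ± 0.16 in dDG (edgeR adjusted p = 0.125, 0.0118 with the block and 0.0188 with date and plate). Date and plate as factors further added Grin2c (adjusted p = 0.0241) and Grm2 (0.0393) in vCA1, the former lower and the latter higher with dexamethasone. Without the vCA1 library rich in Gabra6, which held 146 CPM of Grin2c, the vCA1 value of Grin2c went from -0.45 ± 0.15 (adjusted p = 0.0874) to -0.30 (adjusted p = 0.199).

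**Figure D3:**
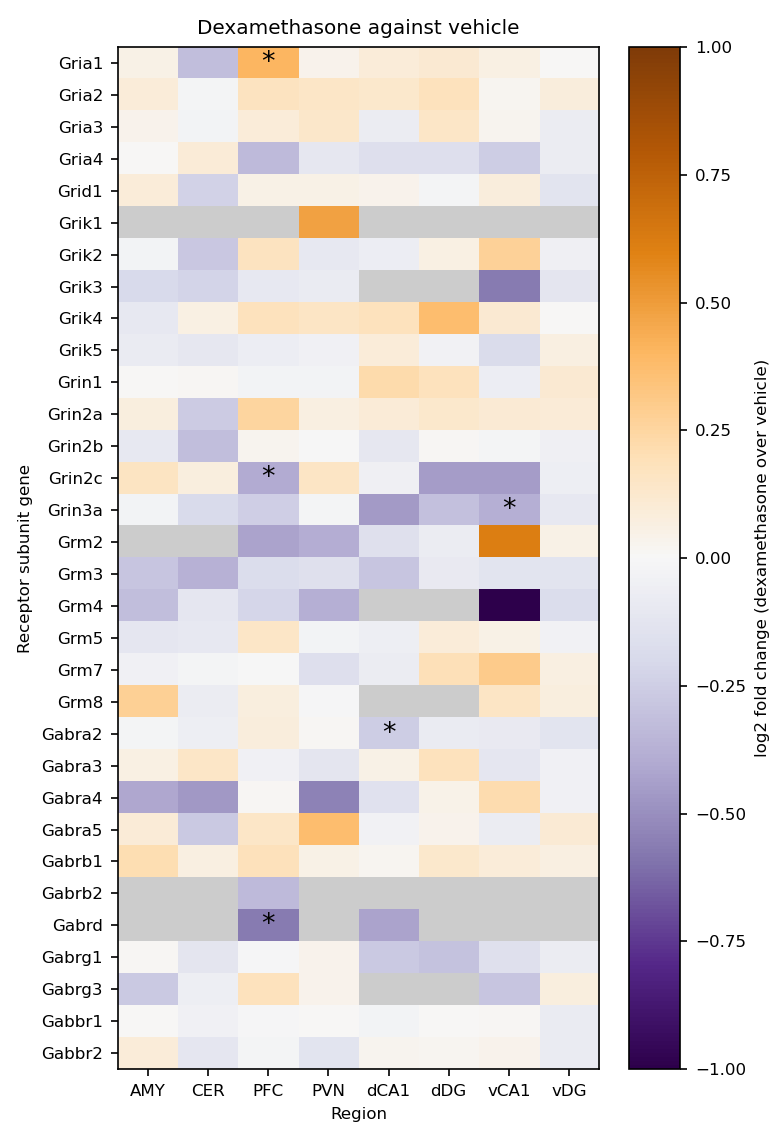
Log2 fold change of dexamethasone over vehicle for each of the 32 tested genes (rows) in the 8 regions (columns); orange is higher and purple lower with dexamethasone, grey was not tested, and an asterisk marks an adjusted p under 0.05. The colour scale ends at 1 in either direction, past which lies 1 value (Grm4 in vCA1), and 5 cells carry an asterisk, 3 of them in PFC.

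In PFC, the AMPA subunit Gria1 rose and the NMDA subunit Grin2c and the GABA-A delta subunit Gabrd fell. Gria1 in PFC ran from 245 through a median of 374 to 442 CPM in the 15 vehicle libraries, and from 308 through 489 to 598 CPM in the 14 dexamethasone libraries. The log2 fold change was 0.40 ± 0.09 (edgeR adjusted p = 0.00105). The dexamethasone libraries were shifted upwards as a group, and the ranges overlapped. Grin2c in PFC ran from 30.2 through a median of 42.1 to 70.8 CPM in the 15 vehicle libraries, and from 23.4 through 31.4 to 51.2 CPM in the 14 dexamethasone libraries. It fell, with a log2 fold change of -0.40 ± 0.12 (edgeR adjusted p = 0.0388), again with overlapping ranges. Gabrd in PFC ran from 13.8 through a median of 23.3 to 38.1 CPM in the 15 vehicle libraries, and from 6.73 through 14.9 to 38.5 CPM in the 14 dexamethasone libraries. Its log2 fold change was -0.57 ± 0.18 (edgeR adjusted p = 0.0428). The highest dexamethasone library of Gabrd was as high as the highest vehicle library, although most lay lower. Punching date 2 had 1 vehicle library in PFC, dCA1 and vCA1 and is left out of the within-batch values. Here and below, these values divide the same libraries that gave the calls, so they are not independent support. Within the other batches all 3 kept their direction: the log2 difference of Gria1 ran from 0.19 to 0.53 over 4 of 5 punching dates and 0.23 to 0.55 over the 4 plates, that of Grin2c from -0.60 to -0.20 over 4 of 5 punching dates and -0.43 to -0.31 over the 4 plates, and that of Gabrd from -0.84 to -0.11 over 4 of 5 punching dates and -0.89 to -0.32 over the 4 plates. Gria1 and Grin2c stayed past the threshold in all 11 alternative analyses, while Gabrd missed it with no filter on low counts (adjusted p = 0.0549, range over 10 alternatives 0.00519 to 0.0549).

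Other PFC genes came near the threshold, and some of them passed in alternative analyses. Their edgeR log2 fold changes were -0.43 ± 0.14 for Grm2 (adjusted p = 0.0504), -0.33 ± 0.11 for Gria4 (adjusted p = 0.0667) and 0.25 ± 0.09 for Grin2a (adjusted p = 0.0887). With the replicate block all 3 passed, with adjusted p of 0.0222, 0.0126 and 0.0474, as did Gria2 (0.19, 0.0352). With date and plate as factors Grm2 (adjusted p = 0.0322) and Gria4 (0.0174) passed. In the libraries listed in the deposited variance-stabilised tables Grm2 (adjusted p = 0.0104) and Grin2a (0.0168) passed. Gabrd was tested in only 1 other region, dCA1, where the value was -0.43 ± 0.22 (adjusted p = 0.397). Cell type markers were read in the same PFC libraries. Of the markers tested, 0 of 5 for neurons, 0 of 6 for inhibitory neurons and 0 of 6 for astrocytes passed. Of 4 excitatory markers, Neurod2 was higher and Neurod6 lower. Of other lists in PFC, the thalamic gene Prkcd was higher and Rspo2 of the amygdala list lower. Of 4 endothelial markers tested, Flt1 and Slco1a4 were lower, and the sum of the 5 listed endothelial genes ran from 292 to 445 CPM in vehicle and 212 to 300.2 CPM in dexamethasone libraries. The microglial gene P2ry12 was lower too, 1 of 6, and the sum of the microglial list ran from 199 to 325 CPM in vehicle and 195 to 271 CPM in dexamethasone libraries. No gene of these lists was at 0 in every PFC library. The part of these markers in the receptor changes was not tested.

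In dCA1, the synaptic alpha subunit Gabra2 fell. Gabra2 in dCA1 ran from 222 through a median of 273 to 367 CPM in the 15 vehicle libraries, and from 205 through 236 to 279 CPM in the 13 dexamethasone libraries. The log2 fold change was -0.26 ± 0.08 (edgeR adjusted p = 0.0406). The lowest dexamethasone library lay below every vehicle library, and the highest stood just above the vehicle median. Within batches the log2 difference ran from -0.37 to -0.01 over 4 of 5 punching dates and -0.34 to -0.17 over the 4 plates. The call was lost with no filter on low counts (adjusted p = 0.105), in libraries with a RIN of at least 5 (0.104) and with the dentate level as a covariate (0.0629), and the adjusted p ran from 0.0125 to 0.105 over 11 alternatives. The log2 fold change itself stayed between -0.26 and -0.23 in all 11, and was -0.24 with the dentate level as a covariate. Of the 8 dentate markers, C1ql2 and Plk5 were lower with dexamethasone in dCA1, and their summed level ran from 676 to 1859 CPM in vehicle and 176 to 1678 CPM in dexamethasone libraries. Of other lists in dCA1, the endothelial genes Flt1 and Slco1a4, the microglial P2ry12, the astrocyte gene Aqp4 and the cortical gene Rorb were lower, and the astrocyte gene Aldh1l1 and the thalamic gene Prkcd higher. The endothelial sum there ran from 251 to 877 CPM in vehicle and 172 to 298 CPM in dexamethasone libraries, and the part of these markers in the Gabra2 change was not tested.

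In vCA1, the NMDA subunit Grin3a fell. Grin3a in vCA1 ran from 41.4 through a median of 66.2 to 91.7 CPM in the 14 vehicle libraries, and from 34.1 through 50.6 to 70.6 CPM in the 15 dexamethasone libraries. The log2 fold change was -0.38 ± 0.12 (edgeR adjusted p = 0.0465). The highest dexamethasone libraries reached past the vehicle median, and the 2 groups overlapped. Within batches the log2 difference ran from -0.58 to -0.04 over 4 of 5 punching dates and -0.65 to -0.13 over the 4 plates. The call was lost under 5 alternatives, namely the replicate block (adjusted p = 0.0592), punching date and plate as factors (0.0609), no filter on low counts (0.0541), the libraries listed in the deposited variance-stabilised tables (0.116) and the dentate level as a covariate (0.211). The log2 fold change stayed between -0.41 and -0.33 in all 11 alternatives, and was -0.36 with that covariate, while the adjusted p ran from 0.024 to 0.211 over 11 alternatives. Of 5 dentate markers tested in vCA1, C1ql2, Npnt and Dsp were higher with dexamethasone, and the sum of all 8 ran from 129 to 379 CPM in vehicle and 141 to 986 CPM in dexamethasone libraries. Of other lists in vCA1, the endothelial genes Flt1 and Slco1a4, the microglial P2ry12, the choroid plexus gene Ttr, the excitatory gene Neurod6, Etv1, and the cortical genes Fezf2 and Rorb were lower, and Rasgrf2 and the thalamic gene Prkcd higher. The endothelial sum there ran from 259 to 531 CPM in vehicle and 191 to 364 CPM in dexamethasone libraries, and the part of these markers was not tested. Grm4 had a vCA1 log2 fold change of -1.40 ± 0.44 (edgeR adjusted p = 0.0529), and without the library that held 185 Gabra6 counts it was -0.36 (adjusted p = 0.491).

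**Figure D4:**
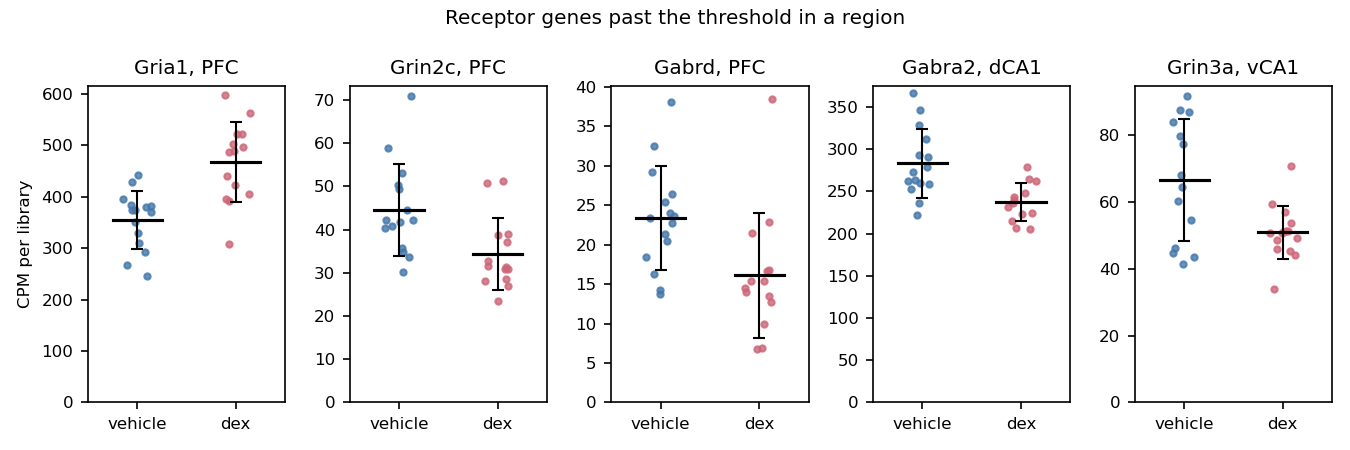
CPM per library of the 5 gene and region pairs past the threshold, in vehicle (blue) and dexamethasone (red) libraries, with the mean as a line and the standard deviation as an error bar; each panel has its own axis from 0. Gria1 in PFC is the 1 pair with a higher dexamethasone mean, and the 2 groups overlap in every panel.

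Counts were also summed over the 8 regions of each animal, for the 13 vehicle and 13 dexamethasone animals with all 8 libraries. Of 32 genes tested, 4 passed, 2 higher and 2 lower, where 18.6% of 13375 genes passed. Gria2 and Gabrb1 rose and Grm3 and Grin3a fell. Summed Grm3 ran from 79.6 through a median of 91.5 to 104 CPM in vehicle animals, and from 71.7 through 78.9 to 92.6 CPM in dexamethasone animals. Summed Grin3a ran from 52.6 through a median of 60.7 to 72.9 CPM in vehicle animals, and from 45.0 through 51.0 to 63.2 CPM in dexamethasone animals. Both were lower with dexamethasone, with overlapping ranges: the log2 fold change was -0.19 ± 0.04 for Grm3 (edgeR adjusted p = 0.00122) and -0.22 ± 0.05 for Grin3a (edgeR adjusted p = 0.0017). Summed Gria2 ran from 987 through a median of 1148 to 1333 CPM in vehicle animals, and from 1148 through 1258 to 1325 CPM in dexamethasone animals. Summed Gabrb1 ran from 270.4 through a median of 303 to 333 CPM in vehicle animals, and from 304 through 319 to 352 CPM in dexamethasone animals. Both were higher with dexamethasone, again with overlapping ranges: the log2 fold change was 0.13 ± 0.04 for Gria2 (edgeR adjusted p = 0.014) and 0.11 ± 0.03 for Gabrb1 (edgeR adjusted p = 0.0159). Without the 3 animals that held the Gabra6-rich libraries, Gabrb1 missed the threshold (adjusted p = 0.0784), and Grik4 (0.19, adjusted p = 0.017) and Grm4 (-0.28, adjusted p = 0.0207) passed it. With the replicate block the same 4 genes passed, and Grik4 (0.15, adjusted p = 0.0135) and Grin2a (0.16, adjusted p = 0.0297) too. Markers of other cell types were lower in the same sums: 4 of 5 endothelial genes (Flt1, Slco1a4, Pecam1 and Cldn5), 3 of 6 microglial (P2ry12, C1qc and Tmem119) and 3 of 6 oligodendrocyte genes (Mag, Cnp and Mog). Of 6 astrocyte genes, Gja1 and Aqp4 were lower and Aldh1l1 was higher. For neurons, 0 of 5 general and 0 of 6 inhibitory genes passed. Of other lists, the excitatory gene Neurod6, the striatal genes Drd1 and Adora2a, Rorb, Rspo2 and the oligodendrocyte precursor gene Cspg4 were lower. Bok and Cd109 of the CA3 and mossy cell list and the thalamic gene Prkcd were higher. The endothelial list summed to 327 to 389 counts per 1000000 in vehicle and 203 to 268 in dexamethasone animals, without overlap, and the microglial list to 205 to 260.2 and 175 to 225. The astrocyte list summed to 2583 to 3127 and 2618 to 2795, the oligodendrocyte list to 4320 to 6549 and 4018 to 6280, and both overlapped. The part of these markers in the summed receptor differences was not tested. A sum gives more weight to the regions with deeper libraries.

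These small summed differences were spread over the regions. The 8 region values of Grm3 were all negative, from -0.37 to -0.09, and those of Grin3a from -0.45 to -0.02. Those of Gabrb1 were all positive, from 0.02 to 0.21, and Gria2 had 7 of 8 positive, from -0.02 to 0.17. The region and summed values rest on the same libraries. Gria1, called in PFC, gave 0.11 ± 0.05 in the sum (edgeR adjusted p = 0.131), with region values from -0.32 in CER to 0.40 in PFC.

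**Figure D5:**
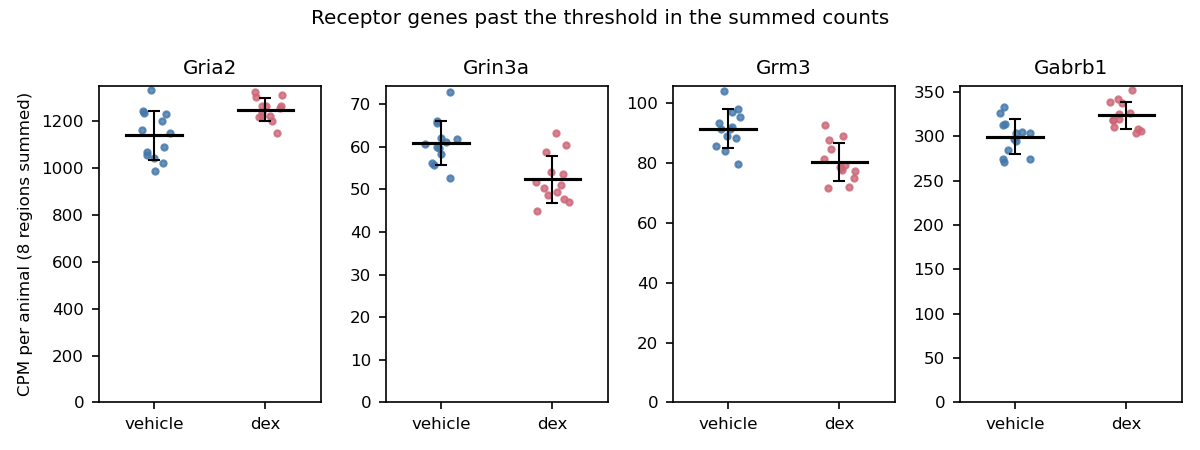
CPM per animal of the 4 genes past the threshold after summing counts over 8 regions, in 13 vehicle (blue) and 13 dexamethasone (red) animals, with the mean as a line and the standard deviation as an error bar; each axis starts at 0. Grm3 and Grin3a are lower and Gria2 and Gabrb1 higher with dexamethasone, and the groups overlap in all 4 panels.

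Whether the response differed between regions was tested directly. Of 32 genes, 0 passed the edgeR test of all region-by-treatment terms, against 1.27% of the 11053 genes tested; an unadjusted p under 0.05 was found for 4: Grm2 (adjusted p = 0.105), Gria1 (0.373), Gabra4 (0.387) and Grin2c (0.591). The changes of Gria1, Grin2c and Gabrd in PFC, of Gabra2 in dCA1 and of Grin3a in vCA1 are not shown to differ from those of the other regions. For Grm2 the 2 most distant region values were -0.43 ± 0.14 in PFC and 0.61 ± 0.21 in vCA1, and neither passed in the main test of its own region. In vCA1, where C1ql2, Npnt and Dsp of the dentate markers were higher with dexamethasone, the Grm2 value was 0.38 (adjusted p = 0.674) once the fit held the dentate level. Both passed in the libraries listed in the deposited variance-stabilised tables (adjusted p = 0.0104 in PFC and 0.0295 in vCA1), where the region-by-treatment test of Grm2 passed too (adjusted p = 0.0177).

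Genes whose products assemble, anchor or modulate these receptors were read alongside. Of 42 genes for glutamate receptor auxiliary and scaffold proteins, 33 to 38 were tested per region, and 0 were higher in any region. Lower were 1 of 37 in AMY, 1 of 37 in PFC, 2 of 38 in vCA1 and 1 of 38 in vDG, where 5.62%, 6.14%, 5.45% and 3.93% of all genes passed. Neto2, an auxiliary subunit of kainate receptors, was lower in AMY (-0.37 ± 0.11, edgeR adjusted p = 0.037), PFC (-0.49 ± 0.11, 0.00351), vCA1 (-0.53 ± 0.14, 0.0103) and vDG (-0.48 ± 0.13, 0.0211), and in the summed counts (-0.29 ± 0.05, 8.89e-05). Homer1, a scaffold that links metabotropic receptors to calcium stores, was lower in vCA1 (-0.39 ± 0.11, edgeR adjusted p = 0.0273). Of 18 genes for GABA receptor auxiliary proteins, 15 or 16 were tested per region and 0 passed. In the summed counts 3 of 17 did, against 18.6% of all genes. Kctd12b and the adhesion protein gene Nlgn2 were lower (-0.45 ± 0.11 and -0.11 ± 0.03, edgeR adjusted p = 0.00426 and 0.0133), and Shisa7, which also counts among the 2 of 42 glutamate genes that passed, was higher (0.23 ± 0.08, edgeR adjusted p = 0.0356).

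The sequence upstream of the start was looked up for the 8 genes called in a region or in the sum, since the glucocorticoid receptor binds DNA. RefSeq's promoter table (GRCm38.p6) held 24 of the 34 genes in 31 windows, and 5 of the 8 called genes: Gria2, Grm3, Gabra2, Gabrb1 and Grin2c. The 250 bases before the start are shown for both genes of these that were called in a region, 5′ to 3′ on the strand of the gene. In mm10 Grin2c spans chr11:115249169-115267243, minus strand, and Gabra2 spans chr5:70957597-71095849, minus strand. The windows are chr11:115267244-115267493 for Grin2c and chr5:71095850-71096099 for Gabra2, both on the minus strand.
Grin2c: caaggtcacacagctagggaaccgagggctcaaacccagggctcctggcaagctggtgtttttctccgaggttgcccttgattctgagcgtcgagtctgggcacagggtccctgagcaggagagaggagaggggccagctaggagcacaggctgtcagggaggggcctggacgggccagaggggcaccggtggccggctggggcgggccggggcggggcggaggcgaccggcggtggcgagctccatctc
Gabra2: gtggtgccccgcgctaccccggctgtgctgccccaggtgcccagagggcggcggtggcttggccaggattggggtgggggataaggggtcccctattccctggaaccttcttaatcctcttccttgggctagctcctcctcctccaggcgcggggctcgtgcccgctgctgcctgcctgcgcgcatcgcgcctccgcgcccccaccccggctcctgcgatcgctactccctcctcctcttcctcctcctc
The full glucocorticoid response element, searched on both strands as GNACA and TGTNC with 3 bases of any kind between them, matched 0 of the 31 receptor gene windows and 0.387% of all 32851 windows. Its shorter core, AGAACA or TGTTCT, matched 3 of the 31 windows, those of Gabrb2 and Grm8, and 16.1% of all windows. Neither of the sequences shown holds either motif, which says only that these letters are not in these windows. The G and C content was 68.8% for Grin2c and 70.0% for Gabra2.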

How the data were processed

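RNA of 235 brain punches was measured by 3' end sequencing with unique molecular identifiers. Per the submitters' processing notes, reads were handled with UMI-tools 0.5.4, cutadapt, STAR 2.6.0a and featureCounts 1.6.4, and the build was mm10; how each was set is not given in the sources used here. The authors deposited whole-number counts per gene, which were used here, and DESeq2 1.30.1 is named in the same notes. The deposited variance-stabilised tables, on a log2-like scale, served only to list which libraries they hold, 228 of 235.

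Counts were tested with edgeR 4.0.16 in R 4.3.3: quasi-likelihood fits with TMM scaling, filterByExpr and Benjamini-Hochberg adjustment over all genes tested, threshold 0.05; each ± is a standard error. Fits were made per region (dexamethasone against vehicle), on vehicle libraries with the animal as a block (regions), on counts summed per animal, and on all libraries (region by treatment). They were tested on simulated data. Alternatives used DESeq2 1.42.0, RLE scaling, other filters, batch, RIN, library and tissue choices. Gene symbols were matched for 27645 of 27998 genes.

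The receptor genes and other lists were chosen with earlier results of these data known. Values are given for genes past a threshold, for the 12 with the largest regional range, and for Gabra6; the rest are given by counts and ranges. Each group has 13 to 15 libraries, each from a separate animal. No libraries of a group agreed within sampling noise: a chi-square test of counts gave at least 1.34 per degree of freedom for every pair. Per the labels, same-numbered animals of the 2 treatments shared the plate in 115 of 115 pairs of libraries and the punching date in 109, so the number pairs them by batch. Their deviations correlated above 0.1 in 2 of 14 (vCA1) to 11 of 15 (dDG) pairs. The region fits have no block; values with the replicate number as a block are given beside the results it changes.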

Additional observations from a re-analysis of the deposited data

How the results depend on the processing

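Under 11 alternatives, which tested 173 to 268 pairs of gene and region in place of 226, the number past the threshold was 4 to 8 in place of 5, except 12 with the replicate number as a block (replicate block) and 11 with punching date and plate as factors. With no filter 2 of the 6 calls were of Gabra6 (PFC and vCA1). Of its 196 counts in vCA1, 185 were in vehicle replicate 15. In PFC it had 21 counts in all, with a median of 0 and a highest library of 18.8 CPM. The number was 8 in the 228 libraries listed in the deposited variance-stabilised tables. The block and the batch factors ended 1 of the 5 calls, Grin3a in vCA1, and added 8 and 7. With at least 10 counts in every library fewer genes were tested, so that 16 of 16 differed among regions in place of 32 of 32, and 113 of 192 region contrasts passed in place of 198 of 384. The test of the response across regions called 0 genes, but 1 (Gabra6, adjusted p = 0.00135) with no filter on low counts and 1 (Grm2, adjusted p = 0.0177) in the libraries of the deposited tables; the cause was not tested. The summed fit called 4 to 6 genes. For the 5 region calls and the 4 summed calls the direction held in every alternative run. Low counts limit Gabrd, Gabrb2 and Grik1, which were tested in 2, 1 and 1 of 8 regions, and Grin2d and Gabra6, which were tested in none. The 3' counts do not separate splice forms, punches mix cell types, and 1 dose and 1 time were measured.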
